A study of Homo sapiens with 24 samples.

Results

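The genes described here are 9 members of the AP-1 family of transcription factors, FOS, FOSB, FOSL1, FOSL2, JUN, JUNB, JUND, ATF3 and MAFF, out of 22260 genes on the array. They were chosen by name, as the genes whose symbols the platform annotation gives to a probe set, and each was covered by between 2 probe sets (JUND) and 12 (FOS). Members, and the gene lists used below, were chosen with earlier results of these data known. Counts of them beside a share of all genes are therefore descriptive. The cells were AC16, an established line made by fusing human ventricular cells with fibroblasts. All groups share a pulse of dexamethasone, a glucocorticoid drug that sets the circadian clocks of cultured cells in step. The 24 samples formed 8 groups of 3, each hybridized to 1 array: no treatment at T0, no treatment at T16, and vehicle, digoxin at 0.5 µM or digoxin at 5 µM at each of T4 and T20. The number after T is the hour of the time course. Digoxin is a cardiac glycoside that blocks the sodium potassium pump. The sources differ on timing: the sample labels put the T20 cells 4 h after treatment, whereas the growth protocol lists lysis 4, 16 and 20 h after it, and the T16 cells are labelled untreated. The labels number the replicates but do not say that each was its own culture, and the spread that the p-values rest on may therefore be technical.

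AP-1 is a dimer of proteins with a basic region and a leucine zipper (bZIP). Jun proteins pair with one another, with Fos proteins or with relatives such as ATF3, whereas Fos proteins need a Jun partner to bind DNA. FOS, FOSB, JUNB and ATF3 are classic immediate early genes, transcribed within minutes of growth factors, calcium entry or stress from promoters that hold sites for CREB, ATF and SRF. In the heart the family is known for its early response to stretch and to hypertrophic signals.

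Values are log2 units per gene, made from the deposited log2 values of the gene's probe sets. The deposited values ran from 1.28 to 19.93, a range whose transformation is not stated, so differences are given in log2 units and not as linear folds, and no gene's level is set against another's. All 9 members were among the 11764 genes tested, which had a highest group mean at or above 6.00. FOSL1, FOSL2, JUN, JUNB and JUND lay above that level in 8 of 8 groups, whereas FOS and FOSB did so in 3 groups, ATF3 in 4 and MAFF in 6, so these 4 entered the test through the groups in which they were high. Replicate arrays correlated at r = 0.991 to 0.995 over genes, and arrays of different groups at 0.977 to 0.994. The number of arrays limits the precision, with a median standard error of 0.139 log2 units for a difference between 2 groups. Although the labels call AC16 ventricular cardiomyocytes, 2 of 18 cardiomyocyte markers (GJA1 and GATA4) reached the level of 6.00, and MYH6, MYH7, TNNT2, ACTN2 and RYR2 did not. Of the fibroblast markers 9 of 10 did so, as did 3 of 4 smooth muscle markers, 0 of 3 endothelial and 0 of 3 leukocyte markers. The mean level of the fibroblast list was 10.99 to 11.11 in the T0 and T4 groups and 11.90 to 11.94 in the T16 and T20 groups. Its part in the differences between times was not tested.

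Promoter sequence is shown for the 5 members that rose with both doses of digoxin at T20, to show the letters of the cAMP response element (CRE) near their starts. The sequences are RefSeq's, of build GRCh38.p14, and give the 250 bases before a start, 5′ to 3′ on the gene's strand. RefSeq's table held promoters for FOS, FOSB, FOSL2, JUN, JUNB, JUND, ATF3 and MAFF (10 windows for 8 members), but not for FOSL1. Capitals mark every match, on either strand, to the CRE TGACGTCA, to its half-site TGACG or to TGACATCA, the variant known from the JUN promoter. Positions count back from the start, at base -1. FOS lies on the plus strand (chr14:75278578-75278827), JUN on the minus strand (chr1:58784048-58784297), JUNB on the plus strand (chr19:12791236-12791485), JUND on the minus strand (chr19:18281623-18281872), and the first MAFF promoter on the plus strand (chr22:38201744-38201993).
FOS: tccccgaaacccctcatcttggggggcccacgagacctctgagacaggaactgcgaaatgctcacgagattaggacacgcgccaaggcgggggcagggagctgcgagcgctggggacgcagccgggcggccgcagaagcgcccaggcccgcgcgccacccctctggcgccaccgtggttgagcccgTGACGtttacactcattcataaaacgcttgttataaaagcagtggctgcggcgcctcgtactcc
JUN: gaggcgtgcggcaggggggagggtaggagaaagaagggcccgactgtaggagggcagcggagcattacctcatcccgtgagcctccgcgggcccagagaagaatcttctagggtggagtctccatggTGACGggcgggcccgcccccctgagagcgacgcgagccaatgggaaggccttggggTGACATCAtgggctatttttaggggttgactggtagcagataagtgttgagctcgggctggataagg
JUNB: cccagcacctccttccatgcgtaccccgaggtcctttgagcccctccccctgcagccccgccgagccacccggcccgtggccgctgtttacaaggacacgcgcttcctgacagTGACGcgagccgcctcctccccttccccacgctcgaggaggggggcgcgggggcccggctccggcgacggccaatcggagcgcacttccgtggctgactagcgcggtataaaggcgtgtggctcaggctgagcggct
JUND: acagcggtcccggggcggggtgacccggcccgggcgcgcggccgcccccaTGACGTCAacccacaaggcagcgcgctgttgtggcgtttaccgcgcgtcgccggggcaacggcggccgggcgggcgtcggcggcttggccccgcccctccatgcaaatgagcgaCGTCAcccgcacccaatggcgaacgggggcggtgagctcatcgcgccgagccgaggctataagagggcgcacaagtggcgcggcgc
MAFF: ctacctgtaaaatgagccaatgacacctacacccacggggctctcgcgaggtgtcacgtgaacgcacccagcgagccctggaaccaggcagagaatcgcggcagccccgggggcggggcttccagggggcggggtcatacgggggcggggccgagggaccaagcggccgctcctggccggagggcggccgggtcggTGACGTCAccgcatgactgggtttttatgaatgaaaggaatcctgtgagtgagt
The half-site of FOS spans -64 to -60, where the known calcium and cAMP response element of the gene lies. JUN held a half-site at -123 to -119 and TGACATCA at -67 to -60, and JUNB held a half-site at -137 to -133. A full CRE stood in JUND at -200 to -193 and in MAFF at -54 to -47, and JUND held a further half-site at -86 to -82. Among the windows not shown, FOSB held a half-site at -60 to -56 and FOSL2 held 2 of them, while the first ATF3 promoter held TGACATCA at -123 to -116. The second promoters of ATF3 and MAFF held none of these letters. A half-site, which every full CRE contains on both strands, was thus found in 7 of 8 members and in 21.2% of 35116 promoters of the table. Here and below, a member counts with a match in any of its windows, whereas the shares count single promoters. The full CRE was found in 2 of 8 members and in 1.65% of promoters, and TGACATCA in 2 of 8 and in 2.37%. TGANTCA, the AP-1 site, was in 0 of 8 members and in 6.57% of promoters, and the CArG box that SRF binds was in 0 of 8 and in 1.16%. Bases further than 250 before a start were not searched, so a count of 0 does not show that a gene lacks the site. These matches describe letters only.

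**Figure D1:**
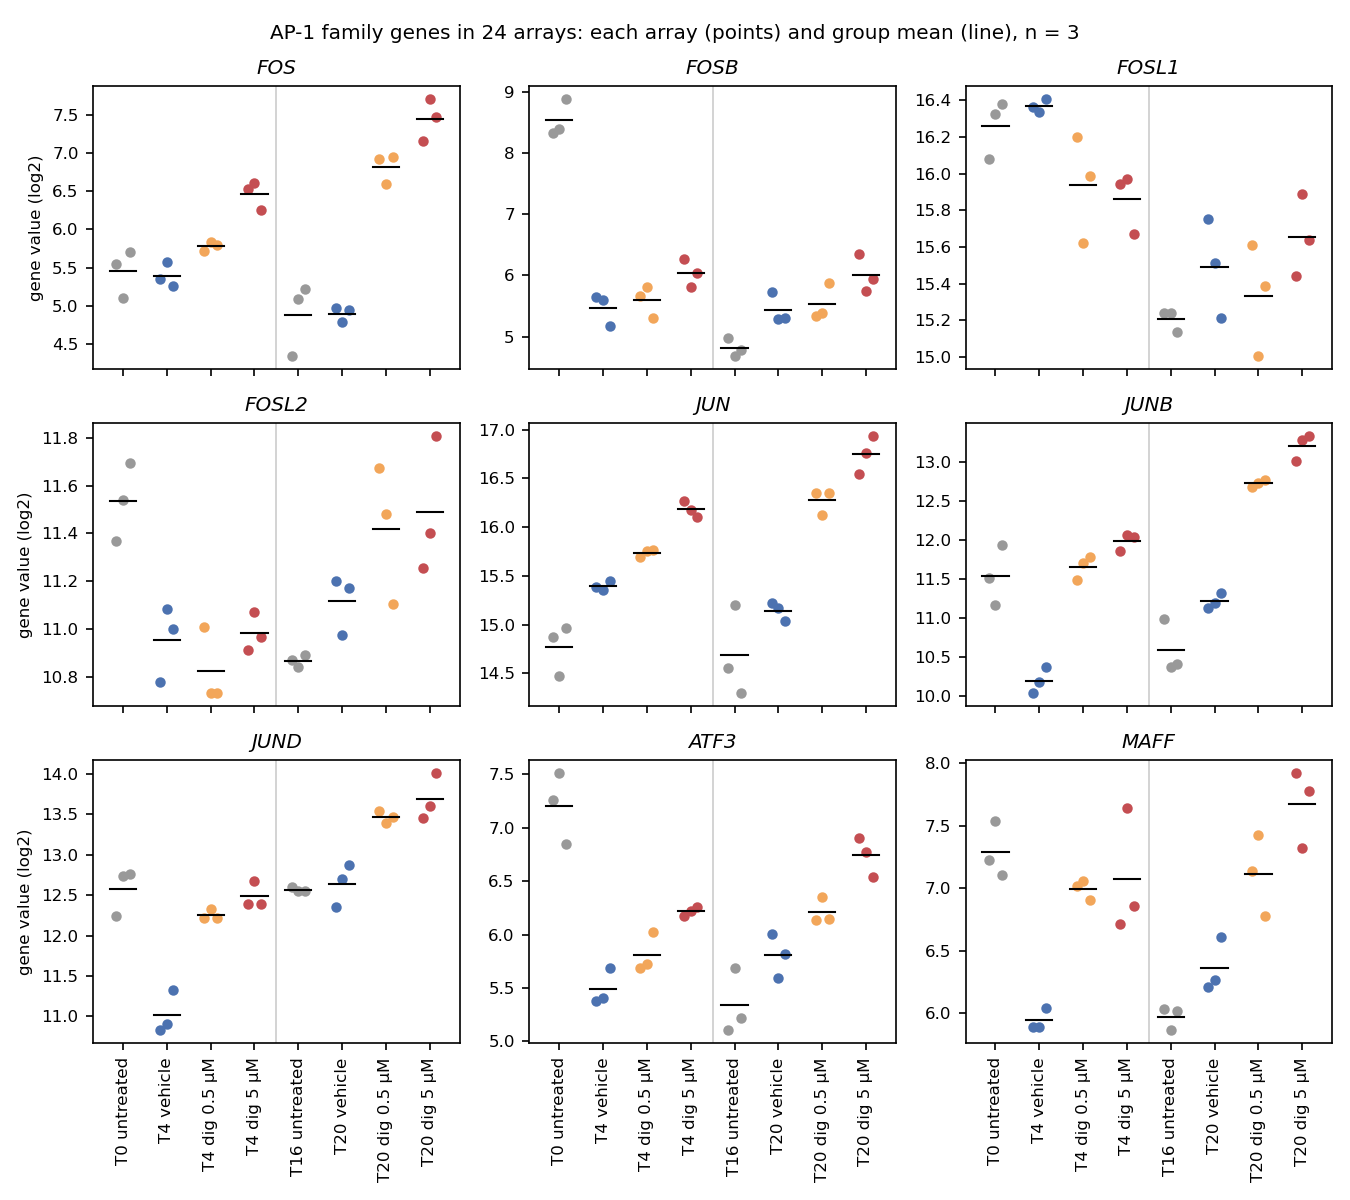
Gene values (log2, vertical axes) of the 9 members in each of the 24 arrays, by group, with 1 point per array and a line at the mean of 3. FOS, JUN, JUNB, JUND and MAFF had their highest mean in cells given 5 µM digoxin at T20, and FOSB and ATF3 at T0.

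Digoxin was set against the vehicle of the same time for each dose. At T4, 0.5 µM digoxin was followed by higher JUNB, JUND and MAFF (3 of 9 members at an adjusted p under 0.05 by limma), beside 5.21% of all genes tested called higher and 4.55% called lower (9.76% either way). At 5 µM, 7 members were higher (FOS, FOSB, JUN, JUNB, JUND, ATF3 and MAFF) and FOSL1 was lower, beside 9.18% and 12.9% of all genes (22.1% either way). At T20, 5 members were higher with 0.5 µM (FOS, JUN, JUNB, JUND and MAFF), beside 5.98% of all genes higher and 4.79% lower (10.8% either way), and 7 with 5 µM (those 5, FOSB and ATF3), beside 12.9% higher and 13.2% lower (26.1% either way). Among the 5 members that lay above 6.00 in every group, a fit of the 10442 such genes called 2 higher at T4 with 0.5 µM, beside 6.07% of its genes higher. At T4 with 5 µM it called 3 higher (10.3% of its genes) and 1 lower, FOSL1 (13.8%). At T20 it called 3 higher with 0.5 µM (6.67%) and 3 higher with 5 µM (14.2%). Both doses at a time share the vehicle arrays, so their results are not independent of each other. In bulk samples, fewer cells of a kind and less RNA per cell cannot be told apart.

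Control RNAs added to each sample moved in the same comparisons. After quantile normalization, the 24 poly-A control probe sets were higher with digoxin than with vehicle by 0.12 and 0.25 at T4 (0.5 and 5 µM) and by 0.31 and 0.70 at T20. The 14 hybridization control probe sets, which are added after the RNA has been amplified, were higher by 0.14, 0.09, 0.48 and 0.70 in that order. Single arrays of a group differed. At T20 the poly-A means were 11.43, 11.32 and 11.58 with vehicle and 12.37, 12.17 and 11.88 with 5 µM. When the arrays were scaled on the poly-A probe sets, the median gene shifted by -0.12, -0.25, -0.31 and -0.72, and the calls changed with it. At T4 with 0.5 µM, 3 members were higher on that scale, beside 1.14% of all genes higher and 4.28% lower, and with 5 µM 5 were higher and 1 lower, beside 1.96% and 23.7%. At T20 with 0.5 µM, 3 were higher, beside 1.08% of all genes higher and 25.0% lower, and with 5 µM 4 were higher and 1 lower, beside 1.19% and 80.8%. The 4 that were higher at T20 with 5 µM on that scale were FOS, JUN, JUNB and MAFF. The part of this shift in the differences below was not tested.

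FOS, the prototype partner of the Jun proteins, was low in vehicle and was highest with digoxin at T20. Its values at T4 were 5.35, 5.57 and 5.26 with vehicle, 5.71, 5.83 and 5.80 with 0.5 µM, and 6.53, 6.61 and 6.26 with 5 µM. At T20 they were 4.97, 4.78 and 4.94 with vehicle, 6.92, 6.59 and 6.96 with 0.5 µM, and 7.16, 7.71 and 7.47 with 5 µM. No digoxin array overlapped the vehicle arrays of its time, and the T4 arrays with 0.5 µM lay only just above them. The difference from vehicle was 0.38 ± 0.20 (SE) at T4 with 0.5 µM (adjusted p = 0.245), 1.07 ± 0.20 with 5 µM (adjusted p = 0.000566), and at T20 it was 1.92 ± 0.20 with 0.5 µM (adjusted p = 2.79e-06) and 2.55 ± 0.20 with 5 µM (adjusted p = 1.68e-08). The rises at 5 µM passed the test in every alternative that was run and that tested FOS. One of these used no filter on low values. The 3 groups in which FOS reached 6.00 were all given digoxin (means of 6.46 at T4 with 5 µM, and 6.82 and 7.45 at T20). FOS thus entered the main test through digoxin groups, and the fit of genes above 6.00 in every group did not test it.

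FOSB, a close relative of FOS, behaved otherwise: it was high at T0 and low in every later group. With vehicle it stood at 5.64, 5.60 and 5.17 at T4 and at 5.72, 5.28 and 5.30 at T20, and with 5 µM digoxin at 6.27, 5.82 and 6.04 and at 6.35, 5.74 and 5.93. The groups at T4 were separate by a small gap, and at T20 the lowest 5 µM array lay just above the highest vehicle array. The rises of 0.57 ± 0.20 at T4 (adjusted p = 0.04997) and 0.58 ± 0.20 at T20 (adjusted p = 0.0433) lay at the threshold. The first lost its call in 13 of 16 alternatives and the second in 9 of 16, and on the poly-A scale the T20 difference was -0.14 (adjusted p = 0.535). With 0.5 µM the differences were 0.12 ± 0.20 (adjusted p = 0.778) and 0.10 ± 0.20 (adjusted p = 0.820).

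FOSL1 and FOSL2 encode Fra-1 and Fra-2, which lack the transactivation domain of FOS and are known for slower, longer induction. FOSL1 measured 16.36, 16.34 and 16.41 with vehicle at T4 and 15.94, 15.97 and 15.67 with 5 µM, with every digoxin array below every vehicle array. It was lower by 0.51 ± 0.17 with 5 µM, a difference of -0.51 (adjusted p = 0.0341), and differed by -0.43 ± 0.17 with 0.5 µM (adjusted p = 0.109). The call at 5 µM was lost in 9 of 18 alternatives, among them centring the arrays on the median gene and leaving out any of the 3 vehicle arrays. At T20 the groups overlapped, with differences of -0.16 ± 0.17 (0.5 µM, adjusted p = 0.617) and 0.16 ± 0.17 (5 µM, adjusted p = 0.509), but on the poly-A scale the latter was -0.56 (adjusted p = 0.0245). FOSL2 did not pass the test with either dose at either time. Its differences were -0.13, 0.03, 0.30 and 0.37 (T4 and then T20, 0.5 before 5 µM), each with an SE of 0.15. At T20 with 5 µM its values of 11.25, 11.40 and 11.81 lay just above the vehicle values of 11.20, 10.97 and 11.17 (adjusted p = 0.0647, 95% interval 0.07 to 0.68), and on the poly-A scale the difference was -0.33 (adjusted p = 0.155). It passed in 2 alternatives, with arrays centred on the median gene (0.44, adjusted p = 0.0400) and without replicate 1 of the 5 µM arrays at T20 (0.49, adjusted p = 0.0310).

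JUN, the core partner in most AP-1 dimers, rose with 5 µM at both times. At T4 it was 15.38, 15.35 and 15.45 with vehicle, 15.69, 15.76 and 15.76 with 0.5 µM and 16.27, 16.17 and 16.10 with 5 µM. At T20 it was 15.22, 15.17 and 15.04 with vehicle, 16.35, 16.12 and 16.35 with 0.5 µM and 16.55, 16.76 and 16.94 with 5 µM. The 3 groups of each time did not overlap and stood in the order of dose. The rises of JUN and JUNB with 5 µM passed the test in all 18 alternatives at both times. The differences from vehicle were 0.34 ± 0.17 (adjusted p = 0.222) and 0.79 ± 0.17 (adjusted p = 0.00195) at T4, and 1.13 ± 0.17 (adjusted p = 0.000156) and 1.61 ± 0.17 (adjusted p = 8.13e-07) at T20.

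JUNB, a Jun protein that activates fewer promoters than JUN, and JUND, the Jun gene known for steady expression in resting cells, rose with either dose at either time. JUNB measured 10.04, 10.18 and 10.37 with vehicle at T4, 11.48, 11.70 and 11.78 with 0.5 µM and 11.86, 12.07 and 12.03 with 5 µM. At T20 it measured 11.13, 11.19 and 11.32, then 12.68, 12.73 and 12.76, then 13.01, 13.28 and 13.33, again with no overlap between the 3 groups. Its differences were 1.46 ± 0.17 (adjusted p = 1.28e-05) and 1.79 ± 0.17 (adjusted p = 4.36e-07) at T4, and 1.51 ± 0.17 (adjusted p = 7.24e-06) and 1.99 ± 0.17 (adjusted p = 6.38e-08) at T20. JUND measured 10.83, 10.91 and 11.33 with vehicle at T4, 12.22, 12.32 and 12.22 with 0.5 µM, and 12.39, 12.67 and 12.40 with 5 µM. At T20 it measured 12.35, 12.70 and 12.87, then 13.54, 13.39 and 13.47, then 13.46, 13.60 and 14.01. The digoxin arrays lay above the vehicle arrays at both times, and the doses overlapped each other at T20. The rises of JUND were 1.23 ± 0.16 (adjusted p = 6.05e-05) and 1.47 ± 0.16 (adjusted p = 3.05e-06) at T4, and 0.82 ± 0.16 (adjusted p = 0.00246) and 1.05 ± 0.16 (adjusted p = 8.84e-05) at T20. On the poly-A scale JUND at T20 came to 0.49 (adjusted p = 0.0806) and 0.33 (adjusted p = 0.142), so neither passed there.

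ATF3, a stress-induced factor that represses as a homodimer, passed the test with 5 µM. Its vehicle values were 5.38, 5.40 and 5.69 at T4 and 6.00, 5.59 and 5.82 at T20, and with 5 µM they were 6.17, 6.22 and 6.26 and 6.91, 6.77 and 6.54. Neither pair of groups overlapped. ATF3 rose by 0.72 ± 0.17 at T4 (adjusted p = 0.00406) and by 0.93 ± 0.17 at T20 (adjusted p = 0.00037), and differed by 0.32 ± 0.17 (adjusted p = 0.257) and 0.40 ± 0.17 (adjusted p = 0.139) with 0.5 µM. Both calls at 5 µM were lost on the poly-A scale, with 0.49 (adjusted p = 0.0527) at T4 and 0.25 (adjusted p = 0.207) at T20, and also with the median in place of the median polish of probe sets, with 0.66 (adjusted p = 0.250) and 0.85 (adjusted p = 0.101).

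MAFF is a small Maf protein, a bZIP factor with no transactivation domain of its own. At T4 it stood at 5.89, 5.89 and 6.04 with vehicle, 7.01, 7.06 and 6.91 with 0.5 µM and 6.71, 7.64 and 6.86 with 5 µM. At T20 it stood at 6.21, 6.27 and 6.61, then 7.14, 7.42 and 6.77, then 7.92, 7.32 and 7.78. Each digoxin array lay above the vehicle arrays of its time, and the doses overlapped. MAFF rose by 1.05 ± 0.21 (adjusted p = 0.00249) and 1.13 ± 0.21 (adjusted p = 0.000566) at T4, and by 0.75 ± 0.21 (adjusted p = 0.0236) and 1.31 ± 0.21 (adjusted p = 9.54e-05) at T20. Both T4 calls were lost with the median of probe sets, where the differences were larger, at 1.72 (adjusted p = 0.0927) and 1.42 (adjusted p = 0.101). The call at T20 with 0.5 µM was lost in 8 of 17 alternatives, among them the poly-A scale (0.43, adjusted p = 0.138) and leaving out either of 2 vehicle arrays (replicates 1 and 2) or either of 2 digoxin arrays (replicates 1 and 2).

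**Figure D2:**
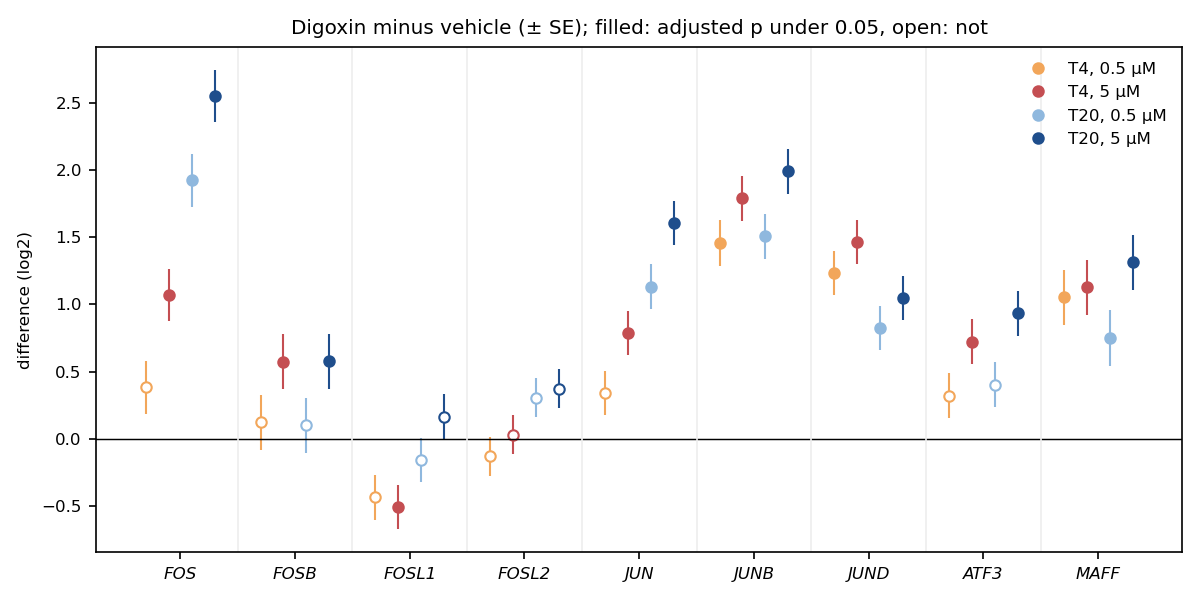
Difference between digoxin and vehicle (log2, vertical axis) for each member, by time and dose, with bars of 1 SE from limma (3 arrays a group). Filled points passed an adjusted p under 0.05. JUNB and JUND are filled in 4 of 4 comparisons, FOS reaches 2.55 at T20 with 5 µM, and FOSL1 is the 1 member with a filled point below 0.

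The doses were then compared directly. Of the members, 0 differed between 5 and 0.5 µM at T4 and 0 at T20, beside 0.442% and 2.46% of all genes (of which 0.136% and 1.22% higher with 5 µM). At an unadjusted p under 0.05, 4 members were higher with 5 µM at T4 and 6 at T20, with 0 lower. The share of all genes at that unadjusted threshold was not counted, so these counts have no background beside them. FOS was 0.69 ± 0.20 higher with 5 µM at T4 (95% interval 0.28 to 1.09, adjusted p = 0.135) and 0.63 ± 0.20 higher at T20 (0.22 to 1.03, adjusted p = 0.0990). MAFF (0.56, interval 0.13 to 0.99, adjusted p = 0.167), ATF3 (0.53, 0.18 to 0.88, adjusted p = 0.104), JUNB (0.48, 0.13 to 0.84, adjusted p = 0.146), FOSB (0.48, 0.05 to 0.90, adjusted p = 0.242) and JUN (0.47, 0.12 to 0.82, adjusted p = 0.148) also had intervals above 0 at T20. At T4, so did FOSB (0.45, 0.026 to 0.88, adjusted p = 0.385), JUN (0.45, 0.10 to 0.79, adjusted p = 0.266) and ATF3 (0.40, 0.05 to 0.75, adjusted p = 0.336). A p that missed the threshold does not show that the doses acted alike: for FOS the intervals reach 1.09 and 1.03.

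The effect of digoxin at T20 was set against its effect at T4. With 5 µM, FOS was the 1 member that differed, its effect being larger at T20 by 1.48 ± 0.28 (adjusted p = 0.0142), beside 0.4% of all genes with a larger effect and 0.17% with a smaller one (0.57% either way). This call was lost on the poly-A scale, with the mean or the median of probe sets, and without replicate 3 of the 5 µM arrays at T4. JUN had a difference of 0.82 ± 0.23 (adjusted p = 0.144), JUND one of -0.42 ± 0.23 (adjusted p = 0.538), and JUNB one of 0.20 ± 0.24 (adjusted p = 0.818). With 0.5 µM, 0 members differed, beside 0.0085% of all genes, and FOS came to 1.54 ± 0.28 (adjusted p = 0.0645). There 3 members had an unadjusted p under 0.05, but the share of all genes at that threshold was not counted.

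Levels also moved with time in cells without digoxin. In T4 vehicle against T0, where time and vehicle change together, 6 members were lower and 1 higher, beside 8.94% and 8.59% of all genes (17.5% either way). FOSB fell by 3.06 ± 0.20 (adjusted p = 2.05e-09), from 8.32, 8.39 and 8.88 at T0 to the vehicle values given above. ATF3, at 7.26, 7.51 and 6.84 at T0, fell by 1.71 ± 0.17 (adjusted p = 5.62e-07). JUND (12.25, 12.73 and 12.76 at T0) fell by 1.56 ± 0.16 (adjusted p = 1.33e-06). These 3 groups of arrays at T0 lay far above those with vehicle at T4. MAFF, at 7.23, 7.53 and 7.10 at T0, fell by 1.35 ± 0.21 (adjusted p = 0.000135), and JUNB, at 11.51, 11.17 and 11.94, fell by 1.34 ± 0.17 (adjusted p = 1.37e-05). FOSL2 fell by 0.58 ± 0.15 (adjusted p = 0.00857), a call lost on the poly-A scale (-0.54, adjusted p = 0.133). JUN rose by 0.62 ± 0.17 from 14.87, 14.48 and 14.97 (adjusted p = 0.0131), a call lost with the median of probe sets (0.56, adjusted p = 0.168) and without replicate 2 of T0. FOS, at 5.54, 5.11 and 5.70 at T0, overlapped its T4 vehicle values (difference -0.05 ± 0.20, adjusted p = 0.898), as did FOSL1 (0.11 ± 0.17, adjusted p = 0.726).

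Because the digoxin effects at T4 are measured against these same vehicle arrays, cells given 5 µM were also set against T0. In that comparison time and digoxin change together. FOS and JUN were higher than at T0, by 1.01 ± 0.20 (adjusted p = 0.000891) and 1.41 ± 0.17 (adjusted p = 5.74e-06), while FOSB (-2.49 ± 0.20), ATF3 (-0.99 ± 0.17) and FOSL2 (-0.55 ± 0.15) remained lower, beside 9.76% of all genes higher and 13% lower (22.8% either way). JUNB (0.45 ± 0.17, adjusted p = 0.0623), JUND (-0.09 ± 0.16, adjusted p = 0.734) and MAFF (-0.22 ± 0.21, adjusted p = 0.491) overlapped their T0 values. For JUNB, JUND and MAFF, then, T4 vehicle was the lowest of the 8 group means, and the cells given 5 µM at T4 overlapped those of T0. For MAFF the T16 mean (5.97) was close to that of T4 vehicle (5.94), and these groups were not compared.

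From T0 to the untreated cells of T16, 7 members were lower and 0 higher, beside 16.7% and 14.9% of all genes (31.6% either way). FOSB fell by 3.72 ± 0.20 to 4.98, 4.69 and 4.78 (adjusted p = 6.52e-11), ATF3 by 1.87 ± 0.17 to 5.11, 5.68 and 5.22 (adjusted p = 8.33e-08), and MAFF by 1.32 ± 0.21 to 6.03, 5.87 and 6.02 (adjusted p = 6.87e-05). The MAFF call was lost with the median of probe sets (-1.48, adjusted p = 0.0604). FOSL1 fell by 1.06 ± 0.17 to 15.24, 15.24 and 15.14 (adjusted p = 7.03e-05), clear of its T0 values of 16.08, 16.32 and 16.38. JUNB fell by 0.95 ± 0.17, FOSL2 by 0.67 ± 0.15 and FOS by 0.57 ± 0.20 (adjusted p = 0.0326, with overlapping groups, and lost in 7 of 16 alternatives). JUND at T16 (12.60, 12.56 and 12.55) lay within its T0 range, unlike at T4 with vehicle. JUN at T16, with values of 14.55, 15.20 and 14.30, overlapped its T0 values.

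In T20 vehicle against T16, 3 members were higher and 0 lower, beside 11.3% and 11.5% of all genes (22.8% either way): FOSB by 0.62 ± 0.20 (adjusted p = 0.0335), JUNB by 0.63 ± 0.17 (adjusted p = 0.0110) and ATF3 by 0.47 ± 0.17 (adjusted p = 0.04996). The ATF3 groups overlapped and its call was lost in 12 of 17 alternatives, that of FOSB in 7 of 16 and that of JUNB in 4 of 18, the last 2 among others without replicate 2 and without replicate 3 of T16. The poly-A controls were lower in T20 vehicle than at T16 by 0.43, a difference of -0.43, and on that scale 8 members were higher, beside 49.2% of all genes higher and 0.95% lower. JUN, which differed by 0.46 and did not pass, passed in 6 of 18 alternatives, among them the poly-A scale (0.97, adjusted p = 0.000668) and a fit without replicate 2 of T16 (0.72, adjusted p = 0.000804). Between the 2 vehicle groups, JUND was 1.62 ± 0.16 higher at T20 than at T4 (adjusted p = 1.53e-06) and JUNB 1.02 ± 0.17 higher (adjusted p = 0.000433), while FOSL1 was lower by 0.88 ± 0.17, a difference of -0.88 (adjusted p = 0.00148), beside 6.66% of all genes higher and 7.42% lower (14.1% either way). The FOSL1 call was lost on the poly-A scale (-0.70, adjusted p = 0.0565). FOS differed by -0.50 ± 0.20 between these vehicle groups (adjusted p = 0.0971), which did not overlap. With 5 µM at T20 against T16, time and digoxin change together. There, 9 of 9 members were higher, beside 16.3% of all genes higher and 19.1% lower (35.4% either way). The differences ran from 0.45 ± 0.17 for FOSL1 (adjusted p = 0.0405) to 2.62 ± 0.17 for JUNB. Against the vehicle of T20, FOSL1 and FOSL2 did not pass, as given above. Against T16, FOSL1 lost its call in 9 of 18 alternatives, FOSL2 on the poly-A scale (0.38, adjusted p = 0.164) and ATF3 with the median of probe sets (0.65, adjusted p = 0.191).

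**Figure D3:**
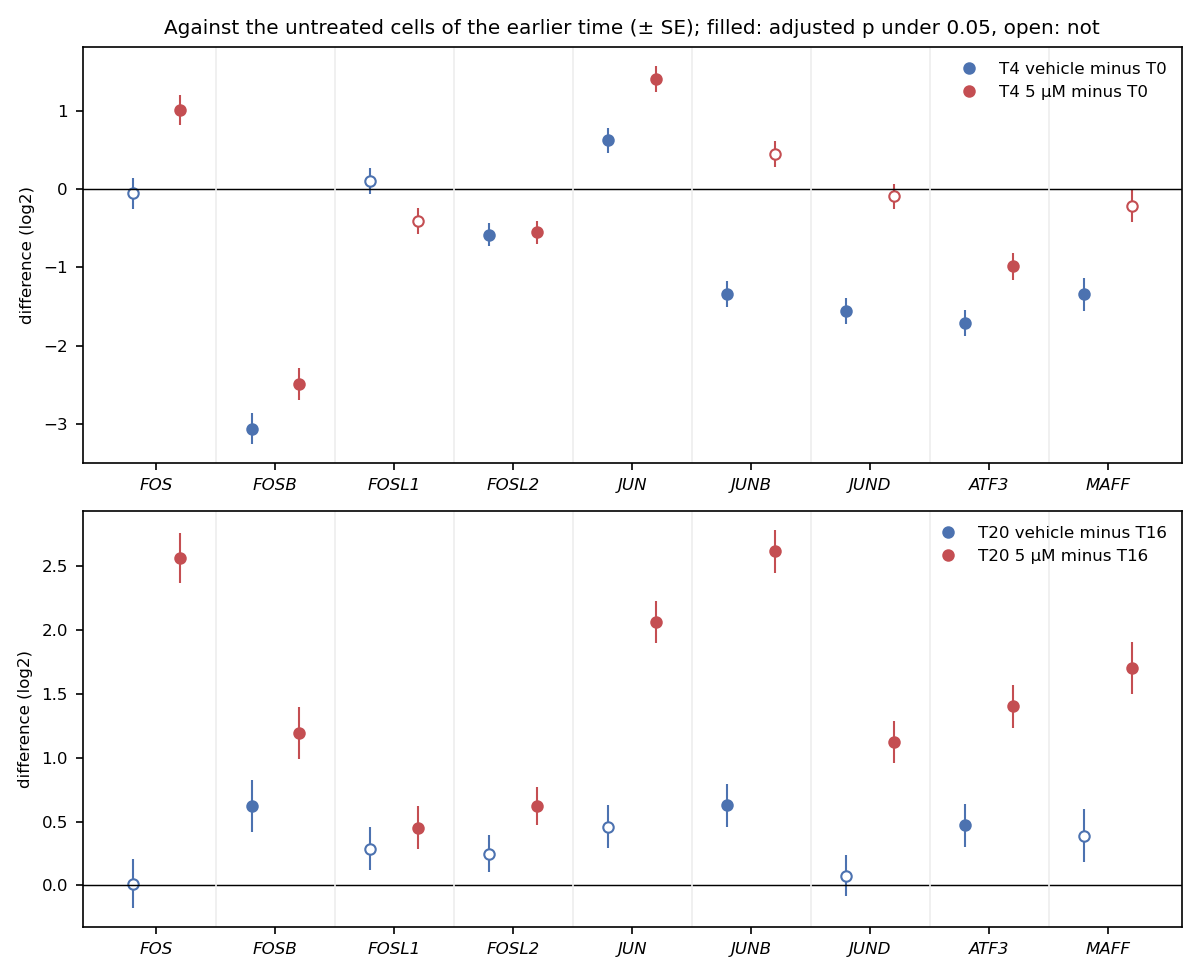
Differences from the untreated cells of the earlier time (log2, vertical axes) for vehicle and 5 µM digoxin, with bars of 1 SE (3 arrays a group). In the upper panel (T4 against T0), FOSB, FOSL2 and ATF3 have filled points below 0 with either treatment. JUNB, JUND and MAFF lie below 0 with vehicle and have open points with digoxin. In the lower panel (T20 against T16), the 9 points of 5 µM digoxin lie above 0. In both panels, time changes along with the treatment.

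The levels of each member can thus be ordered over the groups. FOS, JUN, JUNB, JUND and MAFF had their highest group mean in T20 with 5 µM, FOSB, FOSL2 and ATF3 at T0, and FOSL1 in T4 vehicle. The lowest mean was in T16 for FOS, FOSB, FOSL1, JUN and ATF3, in T4 vehicle for JUNB, JUND and MAFF, and in T4 with 0.5 µM for FOSL2. For MAFF, T4 vehicle (5.94) and T16 (5.97) lay close together. At the top of the order, the difference between 5 and 0.5 µM at T20 did not pass the test for FOS, JUN, JUNB, JUND or MAFF, as given above. At the bottom, no difference passed the test between T20 vehicle and T16 for FOS (0.01 ± 0.20, adjusted p = 0.969) or between T16 and T0 for JUN (-0.09 ± 0.17, adjusted p = 0.725). Over the 8 group means, Pearson's r was 0.94 between FOS and JUN, 0.89 between FOS and JUNB, and 0.87 between FOSB and ATF3, but 0.08 between FOS and FOSB and -0.64 between FOSL1 and JUND. These values describe 8 points that share arrays and normalization.

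Probe sets of a gene did not all carry the difference. JUN (3 probe sets, 1.42 to 1.97 at T20 with 5 µM), JUNB (3, 1.85 to 3.79) and JUND (2, 0.72 to 1.37) moved one way with each probe set. FOS ranged from -0.05 to 4.91 over 12 probe sets, of which 11 were above 0. For ATF3 the 5 probe sets with a mean at or above the median of all probe sets (6.31) ranged from 1.24 to 3.00, and those below it from -0.28 to 0.56. For MAFF the 3 brighter probe sets gave 1.52, 3.43 and 3.84 and the 3 dimmer ones -0.14, 0.82 and 0.88. For FOSB the 3 brighter probe sets gave 1.37, 0.08 and -0.12, and the dimmer ones ranged from -0.40 to 1.49. The probe sets of FOSL1 ranged from -0.29 to 0.98 and those of FOSL2 from -0.16 to 0.71. With only the probe sets at or above that median, an alternative chosen after these values were seen, MAFF rose by 2.90 (adjusted p = 2.31e-06) and ATF3 by 1.80 (adjusted p = 4.46e-06) at T20 with 5 µM, and ATF3 by 0.95 with 0.5 µM (adjusted p = 0.00609), while FOS and FOSB were not tested. The gene values of MAFF and ATF3 thus depend on how dim probe sets are weighed.

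**Figure D4:**
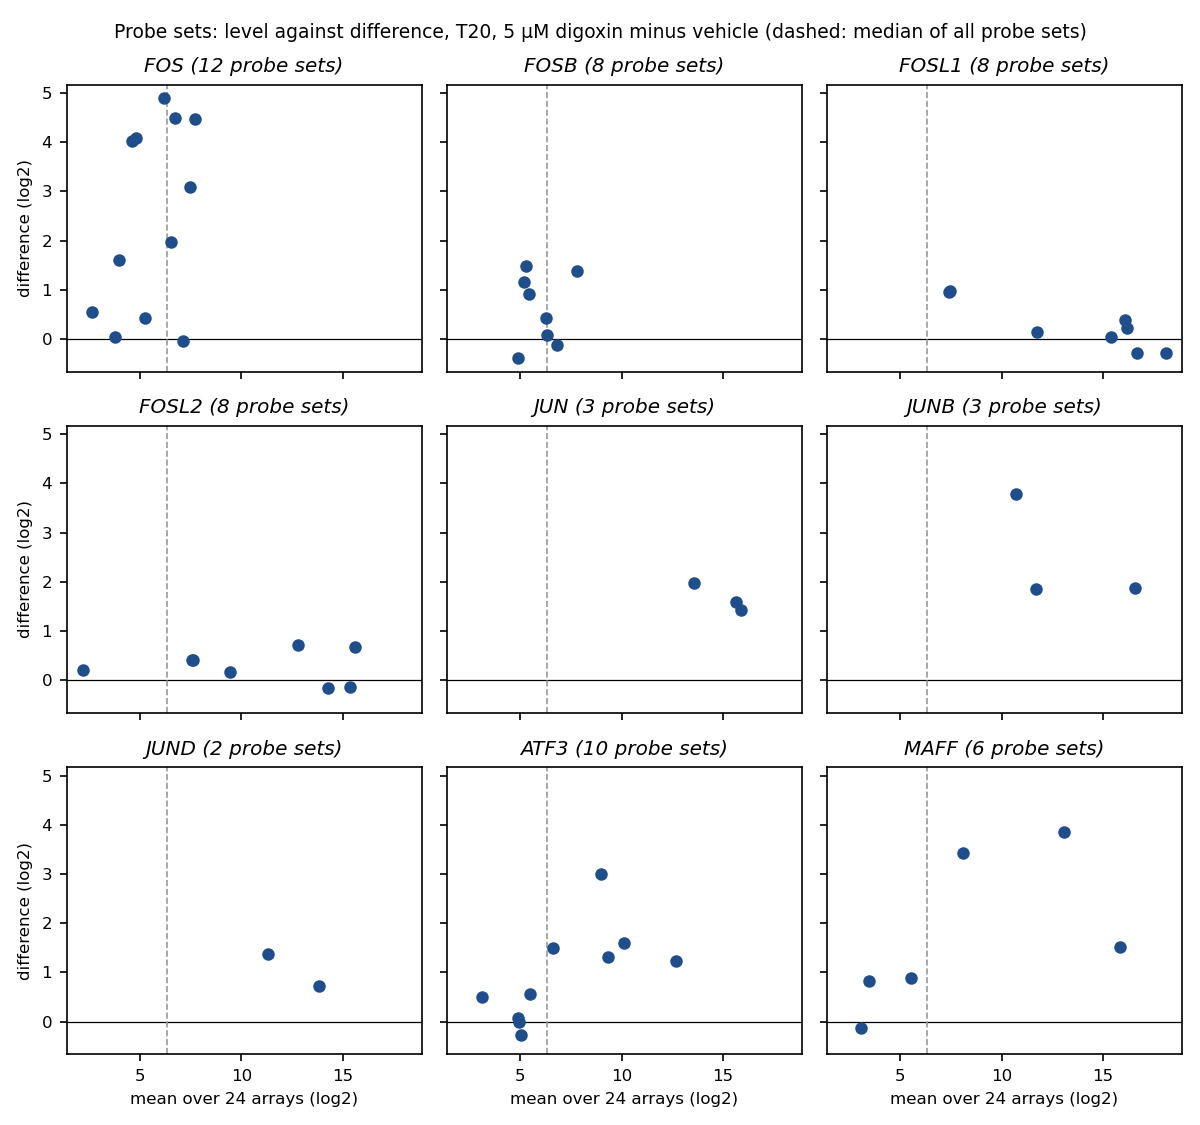
Each point is 1 probe set, with its mean over 24 arrays (log2, horizontal axes) and its difference between 5 µM digoxin and vehicle at T20 (log2, vertical axes), with the median of all probe sets (6.31) dashed. The ATF3 and MAFF probe sets to the right of the line lie at 1.24 or above, and the 3 JUN probe sets lie close together.

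Other bZIP proteins that pair with the family were followed in a list of 24, of which 15 were tested. At T4, 4 were higher and 0 lower with 0.5 µM (all genes 5.21% and 4.55%), and 5 and 0 with 5 µM (9.18% and 12.9%). At T20, 4 were higher and 0 lower with 0.5 µM (5.98% and 4.79%), and 8 and 1 with 5 µM (12.9% and 13.2%), where the median difference of the list was 0.44 and that of all genes -0.01. MAFG and MAFK, the other small Maf genes, rose by 1.79 ± 0.22 (adjusted p = 6.97e-06) and 1.55 ± 0.14 (adjusted p = 1.28e-07) at T20 with 5 µM. At T4 with 0.5 µM they were already higher, by 1.07 ± 0.22 (adjusted p = 0.0036) and 1.32 ± 0.14 (adjusted p = 5.13e-06). NFE2L2, which encodes the small Maf partner NRF2, rose by 0.67 ± 0.09 at T20 with 5 µM (adjusted p = 1.72e-05). The 1 lower gene was JDP2, a repressor that pairs with Jun, at -0.60 ± 0.20 (adjusted p = 0.0298), named here after its value was seen. MAFK, like MAFF, was lower in T4 vehicle than at T0, by 1.51 ± 0.14, a difference of -1.51 (adjusted p = 2.5e-07).

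Kinases, SRF cofactors and ubiquitin ligases that act on FOS and JUN made a list of 34, of which 29 were tested. At T4, 4 were higher and 0 lower with 0.5 µM, beside 5.21% and 4.55% of all genes, and 8 and 3 with 5 µM, beside 9.18% and 12.9%. At T20, 2 were higher and 2 lower with 0.5 µM, beside 5.98% and 4.79%, and 6 and 3 with 5 µM, beside 12.9% and 13.2% (list median 0.08). SRF, the factor that binds the serum response element of FOS, rose by 1.05 ± 0.15 at T4 (adjusted p = 5.1e-05) and 0.85 ± 0.15 at T20 (adjusted p = 0.000322) with 5 µM. It fell by 1.46 ± 0.15 in T4 vehicle (adjusted p = 1.18e-06) and by 2.41 ± 0.15 at T16 (adjusted p = 5.48e-10), both against T0. In T20 vehicle against T16, SRF rose by 0.94 ± 0.15 without digoxin (adjusted p = 0.000166). DET1, part of the ubiquitin ligase complex with COP1 that degrades JUN, was lower with 5 µM, with differences of -0.74 ± 0.12 at T4 (adjusted p = 0.000221) and -0.96 ± 0.12 at T20 (adjusted p = 1.01e-05). MAP3K1, a kinase upstream of JNK, rose by 0.29 ± 0.09 (adjusted p = 0.028) and 0.72 ± 0.09 (adjusted p = 1.06e-05). Against T16, however, MAP3K1 was lower in T20 vehicle (-0.62 ± 0.09, adjusted p = 7.92e-05). With 5 µM at T20 it overlapped its T16 values (0.10 ± 0.09, adjusted p = 0.442).

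Known AP-1 target genes made a list of 40, of which 30 were tested, and DCN and VIM in it are also fibroblast markers. At T4, 5 targets were higher and 2 lower with 0.5 µM (5.21% and 4.55% of all genes), and 8 and 3 with 5 µM (9.18% and 12.9%). At T20, 9 were higher and 0 lower with 0.5 µM (5.98% and 4.79%), and 11 and 0 with 5 µM (12.9% and 13.2%). The median of the list at T20 with 5 µM was 0.08, beside -0.01 for all genes tested. DUSP1, a phosphatase that switches off the MAP kinases, rose by 2.12 ± 0.16 at T4 (adjusted p = 2.45e-08) and 3.09 ± 0.16 at T20 (adjusted p = 5.5e-11) with 5 µM. IL6, a cytokine, rose by 1.32 ± 0.15 (adjusted p = 2.82e-06) and 2.55 ± 0.15 (adjusted p = 2.79e-10), and CXCL8, a neutrophil chemokine, by 2.59 ± 0.20 (adjusted p = 3.96e-08) and 3.25 ± 0.20 (adjusted p = 8.8e-10). In the test of 5 against 0.5 µM at T20, 7 of the 30 targets were higher with 5 µM and 0 lower, beside 1.22% of all genes higher. Among them were IL6 (1.36 ± 0.15, adjusted p = 3.63e-05), CXCL8 (1.05 ± 0.20, adjusted p = 0.00672) and DUSP1 (0.77 ± 0.16, adjusted p = 0.0101). DUSP1 fell by 4.37 ± 0.16 in T4 vehicle against T0 (adjusted p = 1.52e-13), whereas IL6 rose by 1.27 ± 0.15 (adjusted p = 4.38e-06) and CXCL8 did not pass (0.05 ± 0.20, adjusted p = 0.915). All 3 rose without digoxin in T20 vehicle against T16. The rises were 2.68 ± 0.15 for IL6 (adjusted p = 5.33e-10), 2.26 ± 0.20 for CXCL8 (adjusted p = 2.59e-07) and 0.73 ± 0.16 for DUSP1 (adjusted p = 0.00226). The lists were fitted on the main scale, and the poly-A shift of 0.70 at T20 with 5 µM is as large as the rises of NFE2L2 and MAP3K1 there.

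**Figure D5:**
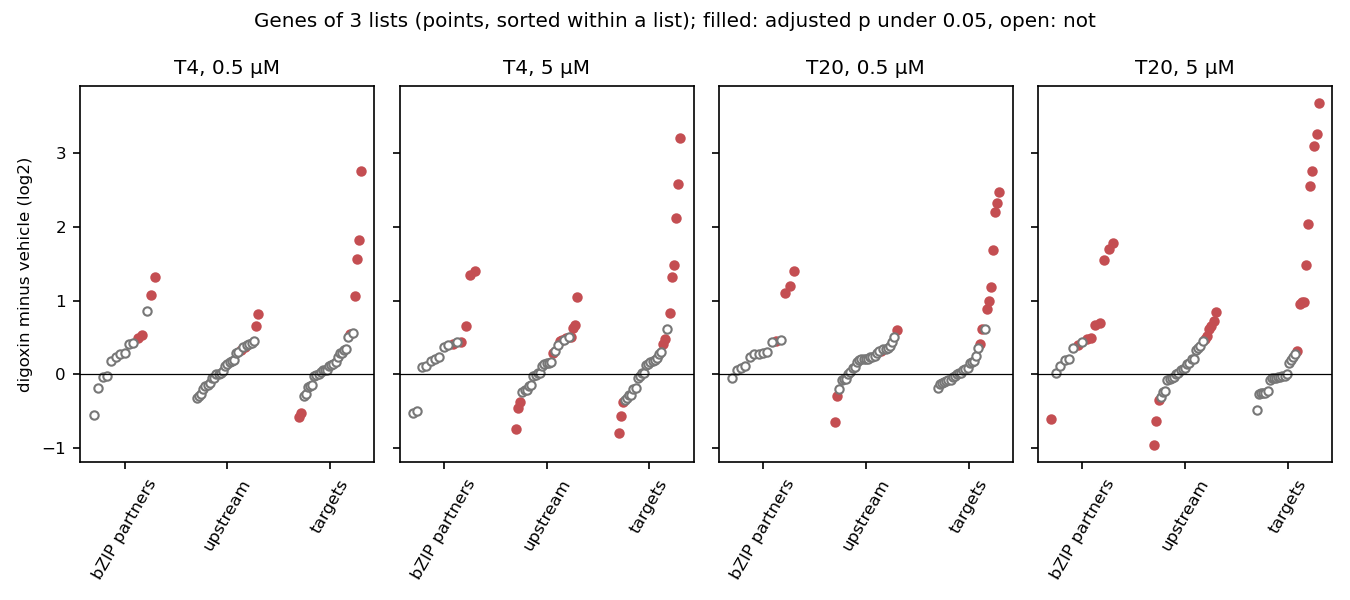
Difference between digoxin and vehicle (log2, vertical axis) for the tested genes of 3 lists (15 bZIP partners, 29 upstream regulators and 30 targets), sorted within each list, in the 4 digoxin comparisons. Filled points passed an adjusted p under 0.05, and in each comparison the highest filled points belong to the targets.

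For each member, the 3 genes with the most similar pattern were taken by Pearson's r over the 8 group means, among the genes tested. The 27 values of r ran from 0.943 to 0.993. FOS was nearest to RPS6KA3 (0.978), CD274 (0.957) and ZNF460 (0.956), and JUN to HIVEP1 (0.976), ZNF350 (0.968) and BIRC3 (0.962). JUNB was nearest to NFE2L2 (0.986), NDEL1 (0.985) and CMC2 (0.981), JUND to CNN1, STX11 and ADAM17 (0.987 each), and MAFF to AEN (0.978), CNST (0.977) and SAMD4A (0.976). Those nearest to FOSB were KLF10 (0.985), ANKRD1 (0.984) and NR4A1 (0.969), and to ATF3 GGNBP2 (0.993), TRIB1 (0.981) and ETS2 (0.978). FOSL1 went with CHD1L (0.972), EIF4A3 (0.968) and SLC25A38 (0.962), and FOSL2 with NANP (0.954), PAFAH1B1 (0.951) and GADD45A (0.943). The 8 points of each pair share arrays and normalization.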

How the data were processed

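RNA of 24 AC16 samples was hybridized to Human Gene 2.0 ST arrays, 1 array each. Per the series' design text, the authors normalized the arrays with Robust Multi-array Average in GIANT, which gave the deposited log2 values of 352859 probe sets, and limma is named in the submitters' processing notes. The sources used here give no versions.

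Values were quantile normalized, because the array medians ran from 6.25 to 6.38. Probe sets with 1 gene symbol in the platform annotation (259224) were combined per gene by median polish. Probe sets with several symbols (13116) or not listed (80519) were left out, and 1726 older symbols were updated through RefSeq. Genes with a highest group mean at or above the median gene value (6.00) were tested (11764 of 22260).

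Groups came from the sample labels. limma 3.58.1 in R 4.3.3 (lmFit and eBayes on all 24 arrays, 16 residual and 3.06 prior degrees of freedom) gave two-sided p-values, adjusted by Benjamini and Hochberg over all genes tested in each of 14 comparisons and called under 0.05. The fit was tested on simulated data. Members, gene lists and comparisons were chosen with earlier results of these data known. The rule for named genes gives each member, the 3 genes with the highest r to it, and from each list the 3 genes of smallest adjusted p at T20 with 5 µM, passing over unnamed loci, small RNAs, olfactory receptor and antisense genes. Alternatives covered scaling, the combination of probe sets, filters, a replicate block, the samples fitted, eBayes settings and each array left out in turn.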

Additional observations from a re-analysis of the deposited data

Results flagged for a closer look

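FOS was the 1 member whose 5 µM digoxin effect differed between the times by a test of the difference itself, being 1.48 ± 0.28 log2 units larger at T20 than at T4 (limma, adjusted p = 0.0142), with all 3 digoxin arrays above all 3 vehicle arrays at each time. On the poly-A scale, with the mean or median of probe sets, and without replicate 3 of the 5 µM arrays at T4, the call was lost, and over all alternatives the difference ran from 0.96 to 1.62 (adjusted p from 0.0108 to 0.632). The poly-A controls had a difference of 0.45 in the same contrast, and their part in the result was not tested. FOS with vehicle was itself lower at T20 than at T4, with a difference of -0.50 ± 0.20 (limma, adjusted p = 0.0971). That difference enters the contrast, so the 1.48 is not the change in the digoxin arrays alone.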

How the results depend on the processing

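Of 624 values for members in the 4 digoxin comparisons under alternatives, 571 stayed on their side of the threshold, 47 lost the call, 4 gained one and 2 reversed. The 571 include 13 values that had no call in either fit and changed sign, 5 of them on the poly-A scale, such as FOSL2 at T20 with 5 µM (-0.33). The reversed values were FOSB (-0.14) and FOSL1 (-0.56) at T20 with 5 µM on the poly-A scale, and outside digoxin ATF3 in T20 vehicle against T16 (-0.20 with the median of probe sets, adjusted p = 0.773). The cause was not tested for any of them. With a filter on the lowest group mean 5 members were tested, so by construction fewer could be called: 4 at T4 and 3 at T20 with 5 µM, 3 at T20 with 0.5 µM, 4 in T4 vehicle against T0, 3 in T16 against T0, 2 in T4 with 5 µM against T0, 5 in T20 with 5 µM against T16, and 0 for the 5 µM effect between times. On the poly-A scale the count was 3 (main 5) at T20 with 0.5 µM, 8 (main 3) in T20 vehicle against T16 and 0 (main 1) for the 5 µM effect between times. The median of probe sets gave 4 (main 8) at T4 with 5 µM, 3 (main 5) for T4 with 5 µM against T0, and 0 both in T20 vehicle against T16 and for the 5 µM effect between times, where the mean of probe sets also gave 0. T20 vehicle against T16 gave 1 with the deposited values, 1 without the filter and 1 in a fit of only the groups compared, a fit that gave 1 (main 0) for the 0.5 µM effect between times. Probe sets at or above the median, chosen after seeing the data, gave 1 (main 0) for 5 against 0.5 µM at T20, 3 for T4 with 5 µM against T0 and 0 for the 5 µM effect between times; FOS and FOSB were not tested in it, so by construction fewer could be called. Leaving out 1 array gave 0 to 3 for T20 vehicle against T16 (0 without T16 replicate 3, 1 without T20 vehicle replicate 1) and 0 to 1 for the 5 µM effect between times. Same-numbered samples did not deviate together (r from -0.17 to 0.17 over 84 pairs, beside -0.18 to 0.17 over 168 pairs of different numbers). This does not show that the numbers mark no pairing. With a replicate block, 7 (main 8) members were called at T4 with 5 µM and 2 (main 3) in T20 vehicle against T16, and no other count changed.

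Over all genes, the median of probe sets gave 294 (main 1148) and 851 (main 2594) calls at T4 and 410 (main 1267) and 1363 (main 3067) at T20, and the poly-A scale gave 650, 3073, 3131 and 9836. Higher genes were 53.4%, 41.6%, 55.5% and 49.3% of calls, against 68.1%, 53.2%, 68.4% and 64.3% after centring on the median gene and 21.1%, 7.65%, 4.12% and 1.45% on the poly-A scale. Leaving out 1 array gave 756 to 849 calls at T4 with 0.5 µM (756 without vehicle replicate 1). For 5 against 0.5 µM the counts ran from 0 to 80 (main 52) at T4 and from 12 to 5415 (main 289) at T20, and for the 5 µM effect between times from 14 to 1458 (main 67). For the comparisons between times the median of probe sets gave the lowest counts, 680 (main 2062), 933 (main 2683), 1628 (main 3716) and 379 (main 1656) in T4 vehicle against T0, T20 vehicle against T16, T16 against T0 and the vehicles, and 1019 (main 2682) and 1945 (main 4160) for 5 µM against T0 and T16. The group means of FOS, FOSB, ATF3 and MAFF lay at or above the median gene value in 3, 3, 4 and 6 of the 8 groups.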
